A study of Homo sapiens with 8 samples.

Results

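The unfolded protein response and ER chaperone genes were followed across 8 RNA-seq libraries of HepG2, a human hepatocellular carcinoma line. They are 32 genes of the 20897 in the deposited tables, chosen by symbol from a list of stress sensors, chaperones, folding enzymes, degradation factors and secreted stress proteins, and all 32 had a row. In 31 of them a level of at least 1 FPKM (fragments per kilobase of transcript scaled to the mapped fragments, a level corrected for transcript length and library depth) was reached in at least 2 libraries, and these 31 were tested. Genistein raised 3 of the 31, namely the co-chaperone DNAJB9, the stress sensor ERN1 and the chaperone HYOU1, and lowered none past the threshold. That is 9.68% of the members, near the 6.11% of all tested genes that were called higher (5.96% were called lower), and HYOU1 lost its call when any 1 DMSO or genistein library was left out. No member passed the threshold after BMP6. HSPA5 (BiP), the most widely used readout of the response, kept overlapping levels in the 3 groups.

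The 8 libraries fall into 3 groups: DMSO (3 libraries), genistein (3 libraries) and BMP6 (2 libraries). DMSO was the 1% vehicle control. Genistein is a soy isoflavone that inhibits tyrosine kinases, given at 10 micromolar by the series description. The protocol text gives that dose in millimolar units, and the conflict is unresolved here. BMP6 is a bone morphogenetic protein that induces the iron hormone hepcidin in hepatocytes, given at 50 ng/ml. Per the protocols, cells were equilibrated for 8 h in medium with 1% serum and treated for 18 h, with the DMSO content kept equal across wells. The series description calls the libraries biological replicates without saying what separates them, so the p-values measure the spread between these libraries. HepG2 is a tumour line grown without the other cells of the liver.

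The endoplasmic reticulum (ER) folds secreted and membrane proteins, and the unfolded protein response matches its capacity to the load. ER-membrane sensors start it: IRE1 (encoded by ERN1) splices XBP1 mRNA, PERK (EIF2AK3) phosphorylates the initiation factor eIF2α and favours translation of ATF4, and ATF6 is cut in the Golgi to release a transcription factor. XBP1 and ATF6 act on ER stress elements in promoters of chaperones and of factors for ER-associated degradation (ERAD), while ATF4 drives amino acid synthesis, CHOP (DDIT3) and feedback on eIF2α. Hepatocytes secrete large amounts of plasma protein and carry abundant folding machinery. Levels of mRNA do not report XBP1 splicing, eIF2α phosphorylation or ATF6 cleavage.

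The libraries were not equally comparable. HAMP, the hepcidin gene, checked the BMP6 label: it was listed at 0 in the 3 DMSO libraries, lay between 22.2 and 34.4 FPKM in the genistein libraries, and reached 2563 FPKM in BMP6 1 and 6425 FPKM in BMP6 2. All 12 hepatocyte markers examined were above 0 in each group. APOA1 (50517 to 58896 FPKM in DMSO, 3983 to 12742 in genistein) and TTR (7162 to 8195 and 822 to 1576) were lower after genistein. So were FGA (8737 to 13126 and 1605 to 2414) and GPC3 (4836 to 5848 and 2851 to 3270). ALB was higher (17949 to 40448 and 45780 to 61916), and the other hepatocyte markers overlapped. Of the fibroblast markers 5 of 6 were at 0 in all 8 libraries. The other, PDGFRB, ran from 1.88 to 4.91 FPKM in DMSO, 0 to 2.92 in genistein and 14.3 to 19.5 in BMP6. Summed myeloid markers ran from 3250 to 4859 FPKM in DMSO, from 1242 to 1955 in genistein and from 1562 to 2401 in BMP6, with PTPRC and CSF1R, 2 of the 5 genes, at 0 in all 8. Nearly all of that sum was LYZ (3219 to 4807 FPKM in DMSO, 1149 to 1839 in genistein), while CD68 went the other way (31.4 to 40.6 and 68.8 to 86.7 FPKM), as did CD14 (0 to 19.3 and 23.9 to 74.4 FPKM). Summed cholangiocyte markers ran from 1471 to 2256 FPKM in DMSO, from 526 to 1118 in genistein and from 314 to 2115 in BMP6. SOX9 (751 to 1303 FPKM in DMSO, 143 to 238 in genistein) and EPCAM (343 to 743 and 118 to 191 FPKM) were lower after genistein, whereas KRT19 ranged from 210 to 327 FPKM in DMSO, from 265 to 714 in genistein and from 143 to 1645 in BMP6. The part of these markers in the results was not tested. The summed FPKM of a library ran from 1704599 to 3105197, and the 32 members made up 0.476 to 0.581% of it. Read depth is not given by these values.

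Libraries of the same group differed with transcript length. Between BMP6 1 and BMP6 2, the difference in log2(FPKM + 1) had a Spearman correlation of 0.756 with transcript length over the 31 tested members and of 0.453 over 11993 genes. With GC content it was -0.560 over the members and -0.559 over all genes. Genistein 3 differed from genistein 1 in the same way, at 0.718 with length over the members, whereas genistein 2 minus genistein 1 gave 0.071. These correlations are descriptions across genes that share their libraries. Short transcripts such as SEC61B, SDF2L1 and MANF were lower in BMP6 1, and the long SEL1L was higher. The BMP6 libraries differed by more than 2-fold in 15 of the 30 members above 0 in both, and by more than 4-fold in 6. The ratio of highest to lowest library had a member median of 2.07 in BMP6, 1.67 in DMSO and 1.59 in genistein, near the all-gene medians of 2.14, 1.71 and 1.65.

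**Figure D1:**
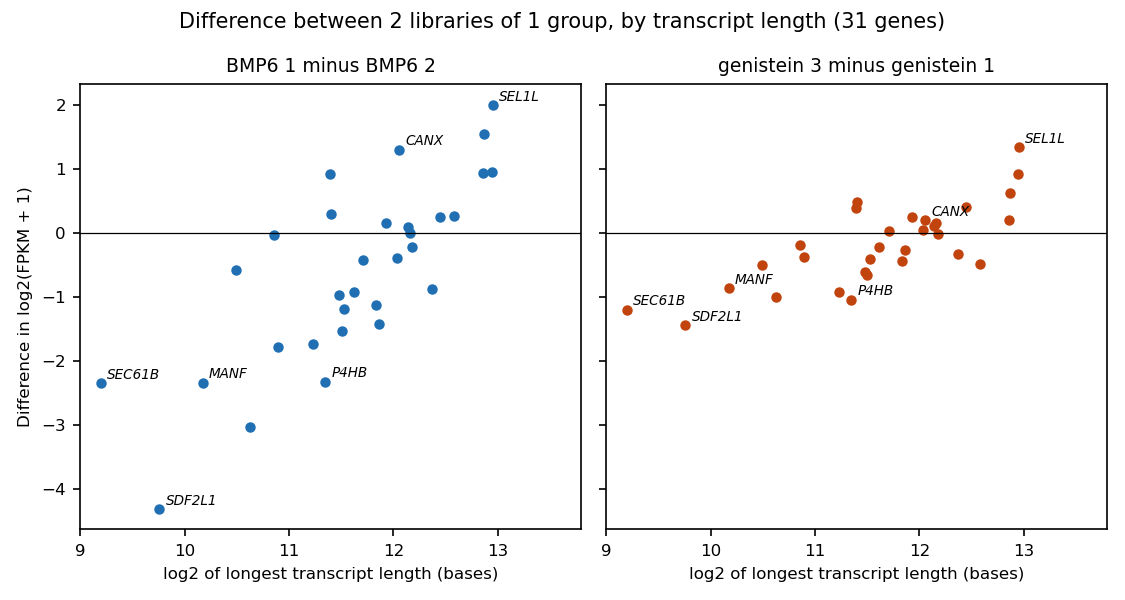
Difference in log2(FPKM + 1) between 2 libraries of the same group (y axis) against log2 of the longest transcript's length in bases (x axis), 1 point per tested gene, for BMP6 1 minus BMP6 2 (left) and genistein 3 minus genistein 1 (right). Both differences go from below 0 for short transcripts to above 0 for long ones, with Spearman correlations of 0.756 and 0.718 over 31 genes.

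In DMSO the members spanned a wide range of levels. The protein disulfide isomerase P4HB had the highest median of the 32, 2331 FPKM, rank 113 of 20897 genes. The lectin chaperone CALR followed at 1821 FPKM, HSP90B1 (GRP94) at 1008 and HSPA5 at 880 FPKM, where the DMSO libraries of HSP90B1 (390 to 1133 FPKM) and HSPA5 (602 to 1076 FPKM) overlapped. Of the 3 sensors, ATF6 had a DMSO median of 26.2 FPKM and EIF2AK3 of 8.16 FPKM. ERN1, at 4.20 FPKM, had the lowest DMSO median of the 31 tested members. Some folding genes were as low: ERO1B had a median of 6.81, DNAJB9 of 22.7 and DNAJC3 of 25.1 FPKM. XBP1, the target of IRE1, stood at 421 FPKM. DERL3, a derlin of secretory cells, was listed at 0 in all 8 libraries.

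**Figure D2:**
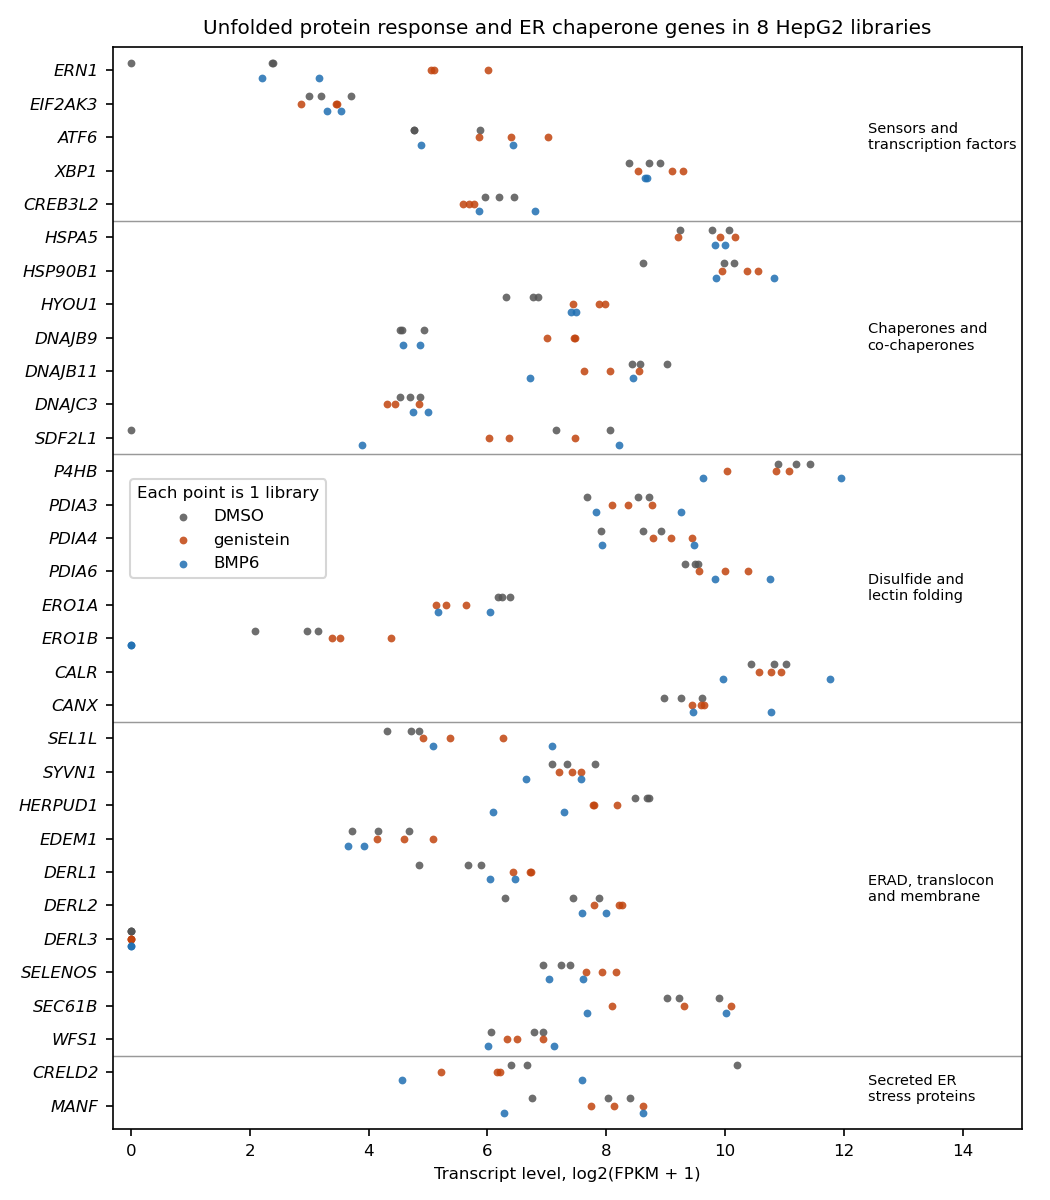
Transcript level as log2(FPKM + 1) on the x axis for the 32 genes, grouped by role, with 1 point per library (DMSO grey, genistein orange, BMP6 blue). The genistein points of ERN1, HYOU1 and DNAJB9 lie to the right of all their DMSO points, while the genistein and DMSO points of HSPA5, CALR and PDIA3 overlap.

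Some of the members share promoter elements that the selection of the list did not use. Promoter sequences were found in RefSeq (build GRCh38.p14) for 29 of the 32, and the 250 bases before each start were searched on both strands. The ER stress element ERSE, spelled CCAAT, then 9 bases of any kind, then CCACG, is bound by NF-Y together with ATF6 or XBP1. It occurred in 8 of 29 members, against 0.0916% of the 27305 gene symbols with a promoter. The shorter ERSE-II, spelled ATTGG, then 1 base of any kind, then CCACG, occurred in 3 of 29, against 0.0659%. Either element was found in 11 of 29 members (37.9%), against 0.157% of all these symbols and 2 of 99 genes of the other pathway lists (NUCB1 and SERP1). Several of these genes are the ones in which the element was first described, so the match is a description of the list. The windows below hold the element by which these 11 genes are grouped in the next comparison. The element is in capitals, in the direction of the gene. A match in inverse orientation ends in ATTGG for ERSE and in CCAAT for ERSE-II.

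HSPA5, chr9:125241379-125241421, minus strand: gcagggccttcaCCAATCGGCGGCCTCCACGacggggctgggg
HSP90B1, chr12:103930204-103930246, plus strand: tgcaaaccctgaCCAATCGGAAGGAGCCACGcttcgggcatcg
HSP90B1, chr12:103930309-103930351, plus strand: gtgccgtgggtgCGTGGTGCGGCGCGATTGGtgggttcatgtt
XBP1, chr22:28800591-28800633, minus strand: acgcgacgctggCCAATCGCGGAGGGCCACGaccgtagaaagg
PDIA6, chr2:10812841-10812883, minus strand: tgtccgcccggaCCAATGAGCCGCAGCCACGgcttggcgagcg
CANX, chr5:179698766-179698808, plus strand: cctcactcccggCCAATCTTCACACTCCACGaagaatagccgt
CALR, chr19:12938372-12938414, plus strand: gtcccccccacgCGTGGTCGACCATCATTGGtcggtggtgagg
CRELD2, chr22:49918542-49918584, plus strand: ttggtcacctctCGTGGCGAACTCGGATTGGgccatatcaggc
ERO1B, chr1:236282171-236282208, minus strand: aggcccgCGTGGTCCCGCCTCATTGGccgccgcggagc
HYOU1 (ERSE-II), chr11:119057368-119057402, minus strand: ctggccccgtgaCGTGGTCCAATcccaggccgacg
HYOU1 (ERSE-II), chr11:119057262-119057296, minus strand: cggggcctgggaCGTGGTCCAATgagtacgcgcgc
HERPUD1 (ERSE-II), chr16:56932013-56932047, plus strand: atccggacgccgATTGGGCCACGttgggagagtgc
SDF2L1 (ERSE-II), chr22:21642102-21642136, plus strand: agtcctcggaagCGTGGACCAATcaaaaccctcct

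These 11 genes did not move together. After genistein 1 of the 11, HYOU1, rose, and the group's differences from DMSO had a median of 0.31 on the log2(FPKM + 1) scale. The lowest was -1.90 (CRELD2) and the highest 1.55 (SDF2L1), and both rest on DMSO 1, where CRELD2 was at 1174 FPKM and SDF2L1 at 0. Without DMSO 1 they were -0.68 for CRELD2 and -0.99 for SDF2L1. Among the 18 tested members whose window held neither element, 2 rose (ERN1 and DNAJB9), the median was 0.21 and the range -0.90 to 3.80. Over all 12661 genes the median was 0.05 and 6.11% were called higher. After BMP6 the medians were 0.22 and 0.08, with none of either group past the threshold (0.837% of all genes passed).

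After genistein, 3 of the 31 tested members were higher than in DMSO at a limma adjusted p below 0.05 and none was lower. Among all 12661 tested genes, 6.11% were called higher and 5.96% lower (12.1% in either direction), so the members' 9.68% called higher stood near that background. At an unadjusted p below 0.05 in limma there were 7 members (22.6%), against 30% of all genes. Genistein and DMSO libraries did not overlap in 12 of 31 members (38.7%), 8 higher and 4 lower, against 43.9% of all genes (23.3% higher and 20.6% lower). In bulk RNA, fewer cells with a transcript and less of it per cell cannot be told apart.

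DNAJB9 (ERdj4), an ER co-chaperone of BiP that holds IRE1 inactive and assists degradation, changed with the smallest p of the 31. On the files' build hg18 the gene lies at chr7:107997592-108002530. Its level was 22.2, 22.7 and 29.4 FPKM in DMSO 1, 2 and 3, and 127, 174 and 177 FPKM in genistein 1, 2 and 3. The lowest genistein library was thus far above the highest DMSO library. The group means were 24.7 ± 4.01 FPKM (SD, n = 3) and 159 ± 27.6 FPKM (SD, n = 3), a ratio of 6.43. The difference was 2.63 ± 0.30 (SE) on the log2(FPKM + 1) scale, with a limma adjusted p of 0.00452, and it passed the threshold in all 21 alternative settings. The RefSeq promoter of DNAJB9 is shown because this gene rose most firmly while its window held no exact ERSE, ERSE-II or UPRE. The UPRE is the XBP1 and ATF6 site, spelled TGACGTGG or TGACGTGA, found in 0.997% of promoters. The DNAJB9 window did hold CCACG, the end of an ERSE, 2 times over both strands. Looser spellings and bases beyond the 250 were not searched.

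DNAJB9 promoter, chr7:108569624-108569873, plus strand: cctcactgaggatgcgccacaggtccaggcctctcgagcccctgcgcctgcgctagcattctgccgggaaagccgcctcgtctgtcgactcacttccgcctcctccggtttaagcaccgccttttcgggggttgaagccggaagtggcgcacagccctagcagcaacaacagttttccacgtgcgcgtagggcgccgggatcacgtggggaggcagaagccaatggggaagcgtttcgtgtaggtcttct

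ERN1, the gene of the kinase and endoribonuclease IRE1α, was the only one of the 3 sensors past the threshold. It lies at chr17:59474122-59529654 (hg18). It was listed at 0 in DMSO 1, at 4.28 in DMSO 2 and at 4.20 FPKM in DMSO 3, and reached 33.3, 32.3 and 63.5 FPKM in genistein 1, 2 and 3. Each genistein library was above each DMSO library, with the highest value in genistein 3. Long transcripts tended to be higher in genistein 3 than in genistein 1, and that of ERN1 has 7876 bases. The part of length in its values was not tested. The fitted difference was 3.80 ± 0.71 (SE) on the log2(FPKM + 1) scale, with a limma adjusted p of 0.0163. Without DMSO 1, the library at 0, it was 3.00 (limma adjusted p = 0.0207). The call was lost without genistein 3 (limma adjusted p = 0.0744) and without DMSO 2 (limma adjusted p = 0.0518), and with a pseudocount of 0.1 (limma adjusted p = 0.0664) or no low-level filter (limma adjusted p = 0.0652). Its promoter window, shown for comparison with that of DNAJB9, also held none of the 3 exact elements. Unlike the DNAJB9 window, it held no CCACG.

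ERN1 promoter, chr17:64130145-64130394, minus strand: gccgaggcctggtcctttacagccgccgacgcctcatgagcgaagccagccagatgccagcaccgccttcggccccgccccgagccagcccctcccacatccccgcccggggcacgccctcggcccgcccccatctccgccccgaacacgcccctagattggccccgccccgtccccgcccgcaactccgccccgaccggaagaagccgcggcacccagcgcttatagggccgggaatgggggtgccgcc

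The other sensors and transcription factors did not pass. EIF2AK3 (PERK) was at 7.02, 8.16 and 12.0 FPKM in DMSO and 10.1, 6.26 and 10.0 FPKM in genistein, a difference of -0.03 with a 95% interval of -0.94 to 0.87 (limma adjusted p = 0.967). ATF6 was at 57.7, 26.2 and 26.1 FPKM in DMSO and 83.7, 57.3 and 129 FPKM in genistein. DMSO 1 and genistein 2 overlapped, and the difference of 1.30 ± 0.53 (SE) did not pass (limma adjusted p = 0.148). ATF6, with a transcript of 7496 bases, was also highest in genistein 3, and the part of length was again not tested. XBP1, at 421, 332 and 480 FPKM in DMSO and 629, 372 and 549 FPKM in genistein, overlapped as well (limma adjusted p = 0.545). CREB3L2, another ER-bound transcription factor, was at 61.2, 72.5 and 86.3 FPKM in DMSO and 46.9, 50.9 and 54.0 FPKM in genistein, without overlap, and its difference of -0.51 did not pass (limma adjusted p = 0.333).

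Among the chaperones and co-chaperones 2 of 7 rose, DNAJB9 and HYOU1 (28.6%, against 6.11% of all genes). HYOU1 (GRP170), an ER chaperone that exchanges nucleotide on BiP, lies at chr11:118420110-118433122 (hg18). It was at 78.7, 108 and 115 FPKM in DMSO and at 233, 172 and 251 FPKM in genistein. The groups did not overlap, and their means were 101 ± 19.3 and 219 ± 41.4 FPKM (SD, n = 3 each). The difference of 1.11 ± 0.29 (SE) was just past the threshold (limma adjusted p = 0.0456). It lost the call when any 1 DMSO or genistein library was left out, with limma adjusted p from 0.0806 to 0.175, with libraries scaled to a common total (limma adjusted p = 0.0829), and over genes with a mean of at least 5 FPKM (limma adjusted p = 0.0533). Its promoter is the only one of the 29 member windows with a UPRE, which overlaps the upstream ERSE-II (both in capitals, as is the second ERSE-II). In the other pathway lists 8 of 99 genes held a UPRE, against 1.22% of gene symbols with a promoter.

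HYOU1 promoter, chr11:119057206-119057455, minus strand: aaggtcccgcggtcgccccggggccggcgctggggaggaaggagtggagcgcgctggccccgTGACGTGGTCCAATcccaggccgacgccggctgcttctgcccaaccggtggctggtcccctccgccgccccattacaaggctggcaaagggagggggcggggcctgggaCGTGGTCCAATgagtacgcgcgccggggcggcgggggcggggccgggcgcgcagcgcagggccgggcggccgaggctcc

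HSPA5, the HSP70 of the ER, was at 602, 1076 and 880 FPKM in DMSO and at 966, 588 and 1151 FPKM in genistein. The ranges nearly coincided. The difference was 0.07 with a 95% interval of -0.83 to 0.96, which leaves room for a change between 0.563-fold and 1.94-fold on the FPKM + 1 scale (limma adjusted p = 0.929). HSP90B1 was at 390, 1133 and 1008 FPKM in DMSO and 1509, 1327 and 989 FPKM in genistein, with 1 low DMSO library and a difference that did not pass (0.72 ± 0.50 (SE), limma adjusted p = 0.37). DNAJC3 (p58IPK), a co-chaperone, ranged from 22.2 to 28.1 FPKM in DMSO and from 18.8 to 27.8 in genistein. DNAJB11 (ERdj3), secreted with its clients, ranged from 343 to 518 and from 197 to 375 FPKM. SDF2L1, a partner of DNAJB11, was listed at 0 in DMSO 1 but at 141 and 267 FPKM in DMSO 2 and 3, and at 176, 81.6 and 63.9 FPKM in genistein, so the sign of its difference depends on DMSO 1.

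**Figure D3:**
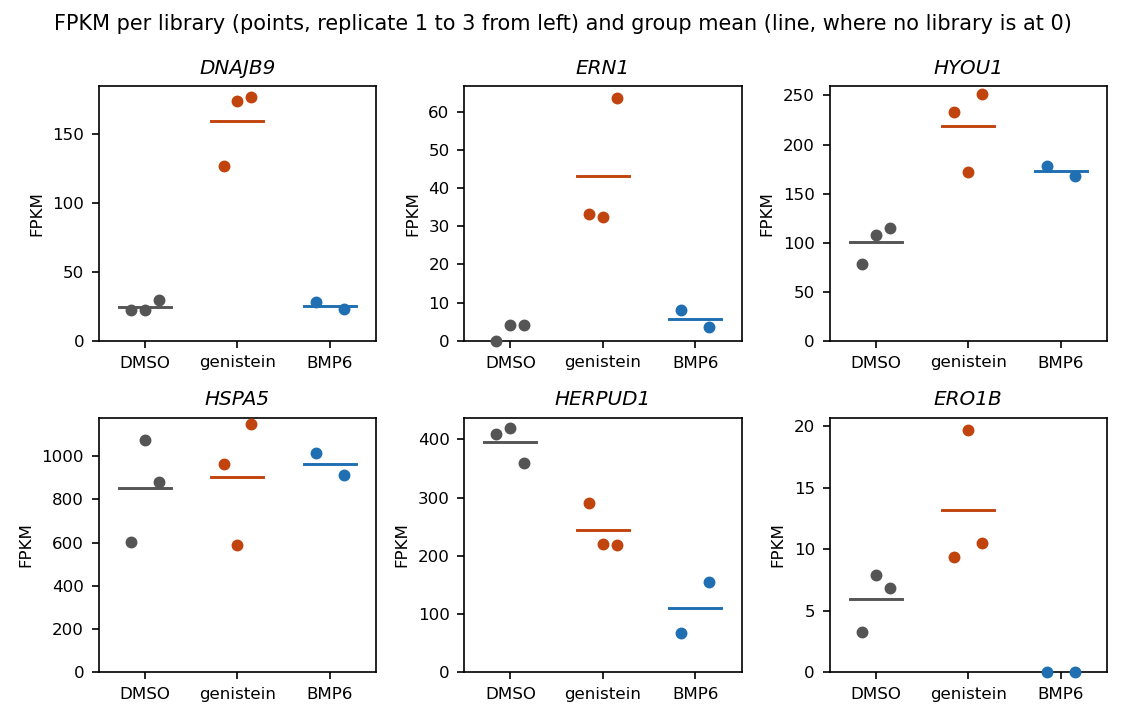
FPKM of 6 genes per library (points, replicates in order from the left), with the group mean as a line where no library of the group is at 0. DNAJB9 and ERN1 are higher in the 3 genistein libraries than in the other 5, HSPA5 overlaps in the 3 groups, HERPUD1 lies between 67.5 and 155 FPKM in BMP6 against 359 to 420 in DMSO, and ERO1B is listed at 0 in both BMP6 libraries.

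None of the 8 disulfide and lectin folding genes passed after genistein, against 12.1% of all genes. In limma 1 had an unadjusted p below 0.05 (12.5%, against 30% of all genes). That gene was ERO1A, the oxidase that reoxidizes protein disulfide isomerase. It was at 71.4, 82.4 and 74.9 FPKM in DMSO and at 49.0, 34.3 and 38.6 FPKM in genistein, without overlap. The means were 76.2 ± 5.59 and 40.7 ± 7.58 FPKM (SD, n = 3 each). The difference of -0.90 ± 0.33 (SE) had a limma adjusted p of 0.116 and passed the threshold in 8 of 21 alternative settings. Its paralog ERO1B was at 3.27, 7.88 and 6.81 FPKM in DMSO and higher without overlap at 9.40, 19.7 and 10.5 FPKM in genistein (1.02 ± 0.48 (SE), limma adjusted p = 0.195). The isomerase PDIA6 was at 721, 641 and 744 FPKM in DMSO and 1017, 756 and 1335 FPKM in genistein, also without overlap (limma adjusted p = 0.386). The most abundant genes overlapped: P4HB ranged from 1900 to 2754 FPKM in DMSO and from 1046 to 2159 in genistein, CALR from 1390 to 2087 and from 1512 to 1972 FPKM. PDIA3, PDIA4 and the membrane lectin CANX had differences of 0.10, 0.62 and 0.29. In the files PDIA6 overlaps ATP6V1C2, SYVN1 overlaps MRPL49, DERL1 overlaps a gene without a symbol and DERL3 overlaps SMARCB1. The use of strand in counting is not stated, so reads of these overlaps cannot be assigned.

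None of the 9 tested ERAD, translocon and ER membrane genes passed, against 12.1% of all genes. In limma 2 had an unadjusted p below 0.05 (22.2%, against 30% of all genes). DERL1, a derlin of the retrotranslocation channel, was at 27.9, 58.2 and 49.9 FPKM in DMSO and 104, 85.3 and 106 FPKM in genistein. The groups did not overlap, at means of 45.3 ± 15.7 and 98.3 ± 11.3 FPKM (SD, n = 3 each), and the difference of 1.16 ± 0.35 (SE) missed the threshold (limma adjusted p = 0.0692), passing in 7 of 21 alternative settings. SELENOS, a selenoprotein that ties derlins to the ATPase VCP, was at 122, 166 and 150 FPKM in DMSO and 286, 242 and 201 FPKM in genistein, again without overlap (0.73 ± 0.30 (SE), limma adjusted p = 0.151). SEL1L, the partner of the ubiquitin ligase HRD1, was at 18.9, 27.7 and 25.3 FPKM in DMSO and 29.3, 40.3 and 75.8 FPKM in genistein (limma adjusted p = 0.324). HRD1 itself, encoded by SYVN1, was at 224, 135 and 161 FPKM in DMSO and 171, 190 and 147 FPKM in genistein, a difference of -0.01.

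HERPUD1, a short-lived ER membrane protein of the HRD1 complex, lay in the other direction. It was at 409, 420 and 359 FPKM in DMSO and at 291, 221 and 219 FPKM in genistein, without overlap. Its difference of -0.71 ± 0.36 (SE) did not pass (limma adjusted p = 0.223). The lectin EDEM1, DERL2, the translocon subunit SEC61B and the ER membrane protein WFS1 had differences of 0.42, 0.88, -0.22 and -0.00. Both secreted stress proteins missed the threshold. CRELD2 was at 1174, 83.5 and 101 FPKM in DMSO, with DMSO 1 far from the other two, and at 73.3, 70.2 and 36.1 FPKM in genistein (limma adjusted p = 0.283). MANF ranged from 107 to 337 FPKM in DMSO and from 213 to 390 in genistein.

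**Figure D4:**
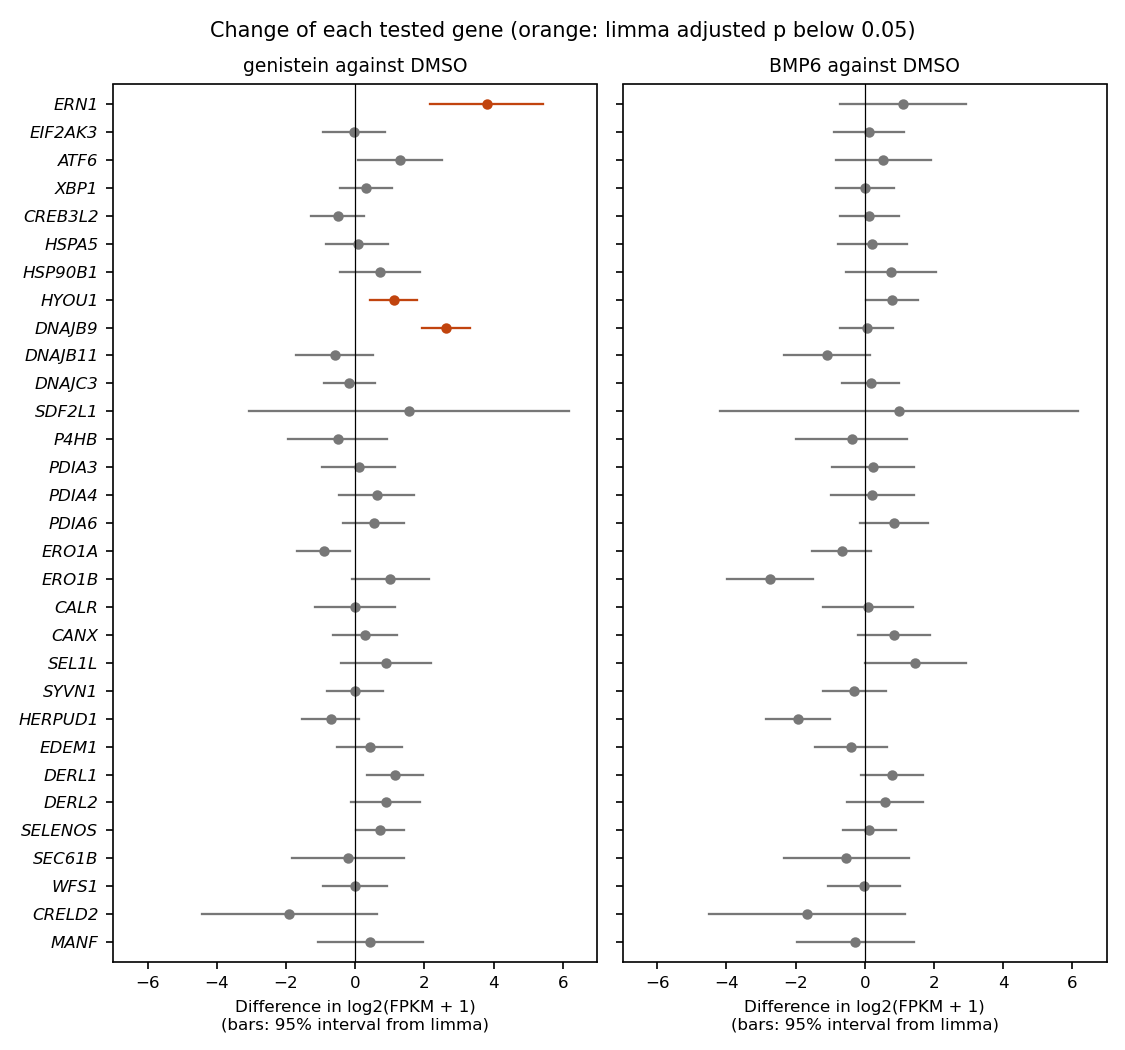
Difference in log2(FPKM + 1) from DMSO (x axis) of the 31 tested genes after genistein (left) and BMP6 (right), with 95% intervals from limma as bars and genes at a limma adjusted p below 0.05 in orange. ERN1, HYOU1 and DNAJB9 are orange on the left, none is on the right, and ERO1B and HERPUD1 have the lowest values on the right.

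The remaining pathway genes were read from 5 lists of 119 genes with a row, of which 117 were tested. The lists were chosen with earlier results of these data known, so their shares are descriptions and not a test. After genistein 18 of the 117 rose (15.4%, against 6.11% of all genes) and 5 fell (5.96% of all genes fell). Of the 18, 10 belonged to the PERK and ATF4 output. That list also holds EIF2S1, which encodes eIF2α, and kinases of eIF2α other than PERK. Which kinase lay behind its changes was not tested. In that list 10 of 18 genes rose (55.6%, against 6.11% of all genes) and none fell. Its median was 2.02, against 0.31 over the members and 0.05 over all genes, and 15 differences were positive (83.3%, against 51.6% of all genes). At an unadjusted p below 0.05 in limma there were 12 (66.7%, against 30% of all genes). ASNS, the asparagine synthetase, was at 81.2, 124 and 120 FPKM in DMSO and 1902, 1531 and 1310 FPKM in genistein (3.86 ± 0.34 (SE), limma adjusted p = 0.0017). DDIT3, the transcription factor CHOP, was at 102, 64.7 and 76.3 FPKM in DMSO and 961, 886 and 609 FPKM in genistein (3.32 ± 0.36 (SE), limma adjusted p = 0.00375). PPP1R15A (GADD34), which directs eIF2α dephosphorylation, was at 38.0, 28.8 and 38.1 FPKM in DMSO and 621, 958 and 391 FPKM in genistein (4.11 ± 0.49 (SE), limma adjusted p = 0.0047). DDIT4, an inhibitor of mTORC1 signalling, was at 69.5, 49.6 and 54.7 FPKM in DMSO and 322, 347 and 345 FPKM in genistein (2.54 ± 0.32 (SE), limma adjusted p = 0.00582). In each of these 4 genes all genistein libraries were above all DMSO libraries, and each passed in all 21 alternative settings. The other 6 that rose were TRIB3, CHAC1, ATF3, NUPR1, CEBPG and EIF2S1, of which all but ATF3 lost the call without DMSO 2 and without 1 or more of the genistein libraries (limma adjusted p from 0.0518 to 0.134). ATF4 mRNA itself was at 876, 1791 and 1841 FPKM in DMSO and 2979, 1964 and 1420 FPKM in genistein, with overlap (limma adjusted p = 0.563). The number of genes called higher in this list was 5 without DMSO 2 and 6 without genistein 1, 2 or 3 in turn. The amino acid response element searched, TGATGNAAN, was in 3.87% of gene symbols with a promoter. It was in 1 of 29 members (HERPUD1, 3.45%). Of the other lists 6 of 99 genes held it, namely ASNS, ATF3, CEBPG, CHAC1, PPP1R15B and SRPRB.

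In 3 of the 4 other lists genes were called in both directions, as were 6.11% (higher) and 5.96% (lower) of all genes. Of 29 other ER folding genes 2 rose (6.9%, near the share of all genes) and 2 fell (median -0.23). HSPA13, a microsomal HSP70-like protein, was at 21.6, 15.4 and 23.6 FPKM in DMSO and 178, 238 and 337 FPKM in genistein (3.54 ± 0.60 (SE), limma adjusted p = 0.0119). DNAJC10 (ERdj5), a disulfide reductase that works with EDEM1, was at 66.3, 102 and 68.9 FPKM and 189, 162 and 169 FPKM (1.15 ± 0.29 (SE), limma adjusted p = 0.0389). The prolyl isomerase FKBP7 fell from 41.9, 42.0 and 34.1 FPKM to 8.60 FPKM in genistein 1 and was listed at 0 in genistein 2 and 3 (limma adjusted p = 0.0184). SUMF1, the sulfatase-modifying enzyme, fell from 30.8, 50.4 and 80.3 FPKM to 14.6, 7.48 and 9.56 FPKM (limma adjusted p = 0.0274). These calls were not equally firm. HSPA13 was lost without DMSO 2 or genistein 3 (limma adjusted p of 0.0595 to 0.0637), and DNAJC10 without any 1 DMSO or genistein library (0.0715 to 0.134), with a difference of 0.68 under the GC correction. FKBP7 was lost without any 1 library of these groups but genistein 1 (0.0542 to 0.0767), and SUMF1 without any 1 but DMSO 1 (0.0555 to 0.0992).

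Of 26 other ERAD genes 3 rose (11.5%, against 6.11% of all genes) and 1 fell (5.96% of all genes fell), with a median of 0.11. MARCHF6, an ER ubiquitin ligase, was at 29.4, 66.9 and 62.1 FPKM in DMSO and 311, 276 and 377 FPKM in genistein (2.66 ± 0.47 (SE), limma adjusted p = 0.0133). The rhomboid protease RHBDD1 rose as well (2.09 ± 0.40 (SE), limma adjusted p = 0.0174). FAM8A1, a component of the HRD1 complex, fell from 128, 68.4 and 66.8 FPKM to 27.7, 23.7 and 22.8 FPKM (limma adjusted p = 0.0251). MARCHF6 lost its call without DMSO 2 or genistein 3 (limma adjusted p of 0.0518 to 0.064), RHBDD1 without DMSO 2, genistein 1 or genistein 3 (0.0579 to 0.0729), and FAM8A1 without any 1 DMSO or genistein library but DMSO 1 (0.0542 to 0.1). Of 23 other translocon, signal peptidase and oligosaccharyltransferase genes 9 had an unadjusted p below 0.05 in limma (39.1%, against 30% of all genes). The list median was 0.44. At the adjusted threshold in limma none fell and 2 rose (8.7%, against 6.11% of all genes). They were the signal peptidase subunit SPCS2, at 37.0, 106 and 157 FPKM in DMSO and 640, 1708 and 1079 FPKM in genistein (limma adjusted p = 0.0108), and the signal recognition particle receptor SRPRA, at 184, 168 and 149 FPKM and 361, 404 and 383 FPKM (limma adjusted p = 0.025). SPCS2 lost its call without DMSO 2 or genistein 3 (limma adjusted p of 0.0509 to 0.0518), and SRPRA without any 1 DMSO or genistein library but DMSO 1 (0.0768 to 0.109).

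Of 21 other genes of unfolded protein response control 1 rose (4.76%, against 6.11% of all genes) and 2 fell (5.96% of all genes fell), with a median of -0.05. CREB3L3 (CREBH), the hepatocyte relative of ATF6 that acts on acute-phase and lipid genes, fell from 986, 619 and 465 FPKM to 45.7, 50.7 and 20.3 FPKM (-4.15 ± 0.57 (SE), limma adjusted p = 0.00692). ATF6B, the paralog of ATF6, fell from 252, 195 and 189 FPKM to 68.2, 69.3 and 55.8 FPKM (-1.70 ± 0.34 (SE), limma adjusted p = 0.0199), while ATF6 itself did not pass. STC2, a secreted glycoprotein, rose from 27.1, 35.2 and 35.1 FPKM to 227, 301 and 163 FPKM (2.76 ± 0.40 (SE), limma adjusted p = 0.00804). CREB3L3 and STC2 passed in all 21 alternative settings, whereas ATF6B lost its call without any 1 DMSO or genistein library (limma adjusted p from 0.0508 to 0.0898).

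**Figure D5:**
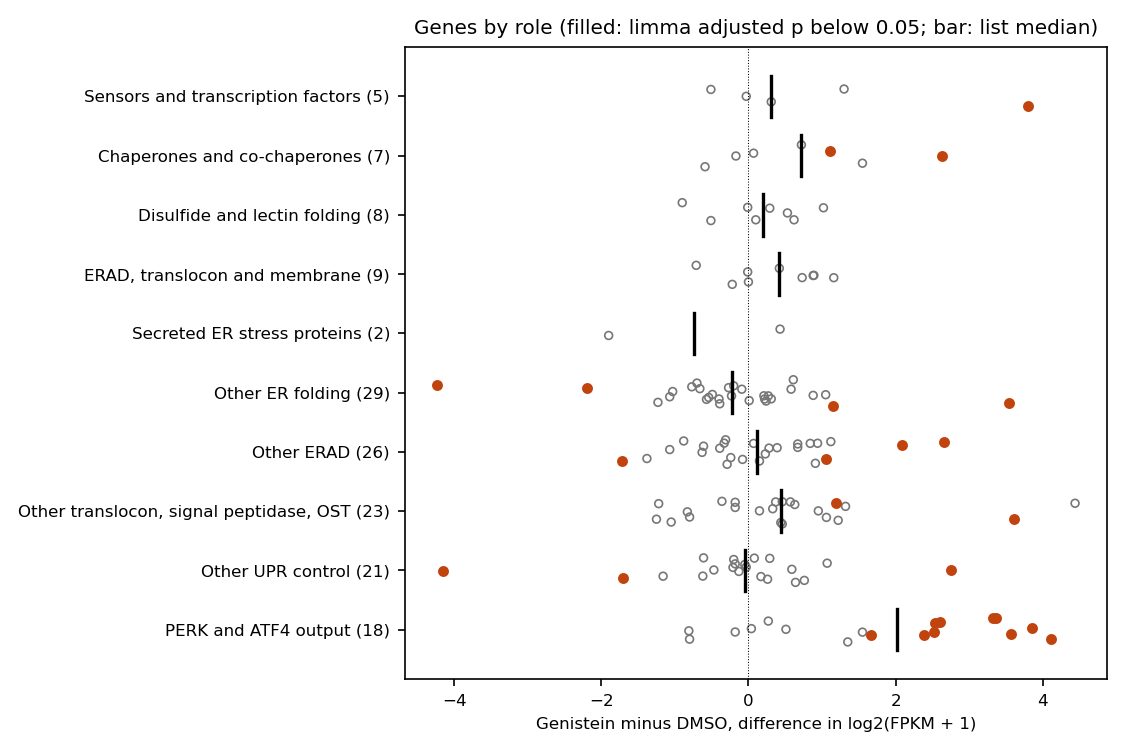
Genistein minus DMSO in log2(FPKM + 1) on the x axis for the members by role and for 5 further pathway lists, with the number tested in parentheses, 1 point per gene, filled where the limma adjusted p is below 0.05, and a bar at each list's median. The PERK and ATF4 output has 10 of 18 filled points, all above 0, while the ERAD and folding members have none. The lists were chosen with earlier results of these data known.

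BMP6 moved no member past the threshold: 0 of 31 were called in limma, against 0.837% of all genes (0.34% higher, 0.498% lower), and 4 had an unadjusted p below 0.05 (12.9%, against 18.9% of all genes). The BMP6 and genistein comparisons share the 3 DMSO libraries. BMP6 and DMSO libraries did not overlap in 7 of 31 members (22.6%), 4 higher and 3 lower, against 33.3% of all genes (16.1% higher and 17.3% lower). The median difference was 0.12, and -0.03 over all genes. HSPA5 was at 1017 and 912 FPKM, within the DMSO range of 602 to 1076, and DNAJB9 at 28.2 and 22.8 FPKM, within the DMSO range of 22.2 to 29.4.

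The smallest p-values after BMP6 belonged to ERO1B and HERPUD1. ERO1B (chr1:234447084-234511908, hg18) was listed at 0 in both BMP6 libraries against 3.27 to 7.88 FPKM in DMSO, with a limma adjusted p of 0.0664 and calls in 7 of 21 alternative settings. HERPUD1 (chr16:55523249-55535294, hg18) was at 67.5 and 155 FPKM against 359 to 420 in DMSO. All BMP6 libraries were below all DMSO libraries, by -1.94 ± 0.40 (SE), with a limma adjusted p of 0.0714 and calls in 5 of 21 alternative settings. SEL1L was at 135 and 33.0 FPKM against 18.9 to 27.7 in DMSO (1.46 ± 0.64 (SE), limma adjusted p = 0.265). The higher value was in BMP6 1, in which long transcripts tended to be higher, and the part of length was not tested. HYOU1 was at 178 and 168 FPKM against 78.7 to 115 (0.79 ± 0.33 (SE), limma adjusted p = 0.245). From BMP6 1 alone the differences from DMSO were 2.46 for SEL1L, 1.49 for CANX, -1.96 for DNAJB11 and -2.53 for HERPUD1. A fit with 1 BMP6 library has to assume that it varies like the others. The BMP6 libraries were far apart in CALR (1001 and 3463 FPKM), P4HB (790 and 3961 FPKM) and SDF2L1 (13.9 and 295 FPKM), and close in XBP1 (403 and 413 FPKM) and HYOU1. None of the 117 genes in the 5 other lists was called after BMP6 in limma, with 31 at an unadjusted p below 0.05 (26.5%, against 18.9% of all genes).

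The direct comparison of genistein with BMP6 called 2 of 31 members higher in genistein (0.64% of all genes) and none lower (0.75%, and 1.39% in either direction), with 4 at an unadjusted p below 0.05 in limma (12.9%, against 14.7% of all genes). The groups did not overlap in 7 of 31 members, 6 higher and 1 lower, against 28.9% of all genes (16.3% higher and 12.6% lower). DNAJB9 was 2.59 ± 0.34 (SE) higher on the log2(FPKM + 1) scale (limma adjusted p = 0.0124). ERO1B was at 9.40, 19.7 and 10.5 FPKM in genistein and listed at 0 in both BMP6 libraries (limma adjusted p = 0.0197). Neither gene was called when genistein 1 or genistein 3 was left out, with limma adjusted p of 0.0507 and 0.0796 for DNAJB9, and ERO1B was not called without BMP6 1 (limma adjusted p = 0.0588) or without DMSO 2 (limma adjusted p = 0.054). ERN1, with all genistein libraries above both BMP6 libraries (7.97 and 3.63 FPKM), did not pass here (2.70 ± 0.80 (SE), limma adjusted p = 0.163). For HYOU1, whose BMP6 values of 178 and 168 FPKM overlapped the genistein range of 172 to 251, no difference was called. In the PERK and ATF4 list 4 of 18 genes were higher in genistein than in BMP6, namely DDIT3 (3.45 ± 0.40 (SE), limma adjusted p = 0.00869), ASNS (2.46 ± 0.38 (SE), limma adjusted p = 0.0242), PPP1R15A (3.39 ± 0.54 (SE), limma adjusted p = 0.0265) and ATF3 (2.39 ± 0.39 (SE), limma adjusted p = 0.0271). That number was 0 to 1 without any 1 of genistein 1, 2, 3, DMSO 2, DMSO 3 or BMP6 1.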

How the data were processed

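RNA-seq of HepG2 cells was deposited as 1 table per library with FPKM values and a status per Ensembl gene. The authors' values come from TopHat 1.1.0, Bowtie, Cufflinks 1.0.3 and Cuffdiff on hg18, per the submitters' processing notes, and the FPKM unit is per the file headers. Settings, order, strandedness and normalization are not given in the sources used here. The 1000 lowest values of a library did not fall with transcript length as values of 1 read would (Spearman correlation -0.0826 to 0.0664), so depth is unknown and no count test was run. A deposited 0 can be a failed estimate, so such genes are given per library.

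The members and lists were chosen with earlier results of these data known. Differences were tested with limma 3.58.1 (R 4.3.3, trend) on log2(FPKM + 1), which understates changes of low genes, over the 12661 genes that reached 1 FPKM in 2 or more libraries. All 8 libraries entered 1 fit with 3 comparisons, with p-values adjusted by Benjamini-Hochberg over all genes and a threshold of 0.05. Samples were grouped by their labels. Genes of the 5 other lists described by their values are the called ones with the smallest p, up to 4 a list and comparison, beside ATF4, and 1 such gene is not reported here. Other genes of those lists are named only to complete a count or a motif match. Starts are as deposited plus 1 (the spans of 270 of 316 olfactory receptor genes are then multiples of 3). GC content and length are those of the longest GENCODE v29 protein-coding transcript. Symbols, promoters and spans were read with Python 3.11.15, and the fitting code was tested on simulated data. Alternatives were other pseudocounts, filters, scalings, sample weights, fits and left-out libraries. Same-total scaling, the joint omission of 3 libraries and a GC correction were added after seeing the data.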

Additional observations from a re-analysis of the deposited data

How the results depend on the processing

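DNAJB9 was higher in genistein than in DMSO at a limma adjusted p below 0.05 in all 21 alternative settings, ERN1 in 17 and HYOU1 in 12. Members called higher in genistein than in DMSO (3) became 7 with sample weights and 5 with the GC correction, and 1 to 4 when 1 library at a time was left out. Members called lower (0) became 1 with median-of-ratios scaling, quantile normalization, a fit of the 2 groups alone or the GC correction, 2 with the same total in every library and 3 with sample weights, and 0 to 1 without 1 library. The split of higher against lower was 4 to 1 with median-of-ratios scaling or quantile normalization and 2 to 2 with the same total. The median of all genes moved from 0.05 to -0.05 with median-of-ratios scaling and to -0.06 with the same total. Over all genes the number called in this comparison (1527) ran from 229 (without DMSO 2) to 5383 (sample weights) over the 21 settings, with 280 without genistein 3, 414 with the replicate block, 577 without genistein 2, 595 without genistein 1, 685 without DMSO 3 and 909 with no filter on the low side. On the high side it was 2239 with median-of-ratios scaling, 2395 with quantile normalization, 2708 with the GC correction, 2690 with the 2 groups alone, 2660 and 2671 without BMP6 1 or 2, and 2780 with the 3 libraries left out together. After BMP6, members called higher (0) stayed 0 in each setting that kept both BMP6 libraries. In those settings members called lower (0) became 1 with a pseudocount of 0.1 or quantile normalization. They became 2 with median-of-ratios scaling, the same total or the GC correction, and were 0 to 1 without 1 DMSO or genistein library. Over all genes the number called after BMP6 (106) ran in those settings from 4 (replicate block) to 678 (GC correction), with 382 for median-of-ratios scaling and 566 for the same total. Fits with 1 BMP6 library, as when DMSO 1, genistein 2 and BMP6 1 were left out together, are not part of these counts. Members called higher in genistein than in BMP6 (2) became 1 with no filter and 3 with a pseudocount of 5. They became 0 with sample weights or the 2 groups alone, and were 0 to 2 without 1 DMSO or genistein library. Over all genes the number called in this comparison (176) ran from 7 (replicate block) to 624 (GC correction) with both BMP6 libraries kept.

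In the PERK and ATF4 output, genes called higher in genistein than in DMSO (10) were 5 to 12 without 1 library, and 1 was called lower with sample weights. After BMP6, genes called higher (0) became 2 with median-of-ratios scaling or the 3 libraries left out together, 3 with quantile normalization, the same total or the GC correction, and 0 to 2 without 1 library, and called lower 1 with the 3 libraries left out and 0 to 1 without 1 library. Against BMP6 the 4 became 0 with the 2 groups alone, 1 with sample weights and 0 to 6 without 1 library.

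Whether replicate numbers pair the samples is not stated. Same-numbered DMSO and genistein libraries had deviations from their group means that correlated at -0.146, -0.0652 and -0.00459. The values were 0.0554 and 0.00142 for DMSO and BMP6 libraries, and -0.247 and 0.286 for genistein and BMP6 libraries. Deviations cancel out within groups of 2 or 3 libraries, so these correlations cannot decide whether samples were paired. With the replicate number as a block, members called higher in genistein were 2 against DMSO, where HYOU1 was lost, and 0 against BMP6, and the PERK and ATF4 output had 0 genes higher in genistein than in BMP6. No result changed direction while called. Depth is unknown, BMP6 has 2 libraries, and the cause of these shifts was not tested.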
